A study of Mus musculus with 4 samples.

Results

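The delayed activity-regulated genes *Scg2*, *Vgf*, *Pcsk1*, *Nptx2*, *Homer1*, *Nrn1*, *Inhba*, *Acvr1c*, *Ptgs2* and *Gadd45b* were examined in RNA-seq of mouse prefrontal cortex (PFC). They were taken by symbol, and all 10 were among the 23420 genes of the count tables. The 2 control samples came from C57BL6/J mice injected with GFP-AAV9 and the 2 *Ash1L* shRNA samples from C57BL6/J mice injected with shRNA_ASH1L-AAV9, an adeno-associated virus that carries a short hairpin RNA against the histone methyltransferase gene *Ash1l*. According to the methods, a U6 promoter, which is not restricted to a cell type, drives 1 hairpin sequence in a GFP-tagged vector, the virus was delivered to the medial PFC at 5 weeks of age, and GFP-positive punches from 3 mice were pooled per sample. The description of the series instead gives an age of 6 to 8 weeks and names 3 *Ash1L* shRNA and 2 control mice, and the methods call the control a scrambled shRNA. All samples are bulk lysates, in which fewer cells of a type and less RNA per cell cannot be told apart.

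Neuronal firing switches on genes in waves. Calcium entry and cAMP first activate transcription factors already present in the cell, such as CREB, and these start immediate early genes, for example *Fos*, *Npas4* and *Arc*, without new protein synthesis. A further set, much of it switched on later and in part through those early factors, encodes proteins that act at the synapse or are secreted. The set includes granins and prohormones, a convertase that cleaves them, pentraxins that gather AMPA receptors, an activin subunit and its receptor, and the inducible cyclooxygenase. In the cortex these genes are known as reporters of recent strong activity, and their RNAs outlast those of the first wave.

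CREB binds the cAMP response element (CRE), whose full palindrome is TGACGTCA and whose core is TGACGT. Promoter windows of 300 bases from RefSeq (GRCm38.p6, the assembly of mm10), which run from 250 bases before to 50 after an annotated start, were matched for 7 of the 10 genes. *Vgf*, *Nptx2* and *Nrn1* had no entry. The stretches that hold a core are shown because they bear on the known activity response of these genes. Each is written 5′ to 3′ on the gene's strand with the matches in capitals, a full CRE being 2 overlapping cores on opposite strands.
*Scg2*, chr1:79440027-79440176, minus strand, the 150 bases before the start: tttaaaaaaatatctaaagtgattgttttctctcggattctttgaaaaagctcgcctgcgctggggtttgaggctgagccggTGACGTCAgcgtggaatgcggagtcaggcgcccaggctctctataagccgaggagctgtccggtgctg
*Pcsk1*, chr13:75089707-75089856, plus strand, the 150 bases before the start: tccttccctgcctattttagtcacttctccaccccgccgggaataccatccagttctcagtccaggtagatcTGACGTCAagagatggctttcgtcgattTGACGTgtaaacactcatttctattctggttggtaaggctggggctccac
*Homer1*, chr13:93303607-93303756, plus strand, the 150 bases before the start: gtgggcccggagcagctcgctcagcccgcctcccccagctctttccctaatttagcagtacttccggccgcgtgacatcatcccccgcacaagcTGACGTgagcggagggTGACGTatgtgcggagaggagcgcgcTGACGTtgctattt
*Ptgs2*, chr1:150100031-150100060, plus strand, 30 bases from the annotated start: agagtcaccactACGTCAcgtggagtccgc

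A full CRE lay in the windows of *Scg2* and *Pcsk1*, 68 and 78 bases before the start at its first base. Of all 27025 genes with windows 2.03% had one, as did 1.79% of all 32851 windows searched on both strands. A core, which every full CRE contains, lay in the windows of 4 of the 7 genes, *Scg2*, *Pcsk1*, *Homer1* and *Ptgs2*. Of all genes with windows 8.37% had a core, as did 7.51% of all windows. *Homer1* carried 3 cores at 56, 40 and 14 bases before one of its starts. The windows of *Acvr1c*, *Gadd45b* and *Inhba* did not hold these letters, and none of the windows held an AP-1 site (TGANTCA, 7.81% of all windows) or a serum response element (1.63%). These are matches of letters, and binding was not measured.

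**Figure D1:**
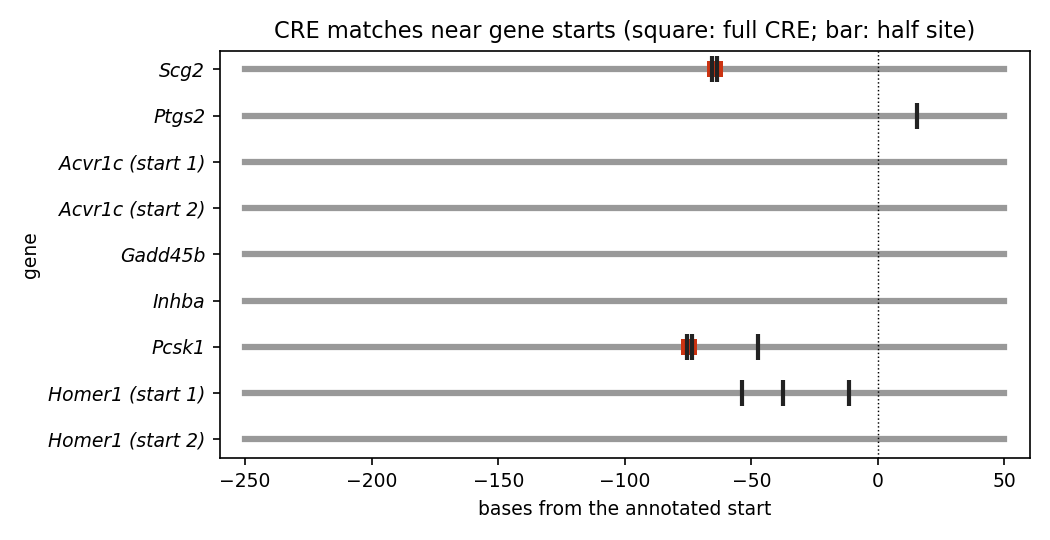
Positions of CRE letters in 9 RefSeq promoter windows of 7 genes. Each grey line is a window, the x axis gives bases from the annotated start, squares mark a full CRE and bars a core. Full CREs appear in *Scg2* and *Pcsk1*, and the first start of *Homer1* has 3 cores.

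Total counts ran from 14251190 to 35764874 per sample and 16232 genes passed the filter on low counts, all 10 genes among them. Levels are given as CPM, read counts scaled to a common library size with TMM factors. UP and DOWN mean an unadjusted P under 0.05 and at least a 1.2-fold change, the rule of the methods. *Ash1l*, the targeted gene, stood at 245 and 290 CPM in control samples 1 and 2 and at 216 and 138 CPM in *Ash1L* shRNA samples 1 and 2. Both *Ash1L* shRNA samples lay below both controls, sample 2 further than sample 1, and *Ash1l* was DOWN at -0.60 ± 0.22 (log2 fold change ± SE, adjusted p = 0.275, edgeR's quasi-likelihood test). Its log2 fold change ran from -0.97 without *Ash1L* shRNA sample 1 to -0.31 without sample 2, and *Ash1l* was not called without sample 2 or without either control. With 2 samples a group a permutation test cannot give a two-sided p below 0.333, so changes were read from edgeR's test across all genes.

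All 10 genes had a fitted level above control in the *Ash1L* shRNA samples, and their median log2 fold change was 1.34, while 8068 of all 16232 genes tested were higher and the median over them was -0.00273. *Scg2*, *Vgf*, *Nptx2*, *Inhba* and *Acvr1c* were UP, 5 of 10, where 8.61% of all genes tested were UP. None was DOWN in edgeR's quasi-likelihood test, DESeq2 or edgeR's likelihood ratio test, and 8.28% of all genes tested were DOWN. In 8 of the 10 both *Ash1L* shRNA samples lay above both controls, which held for 26.5% of all genes tested, and *Pcsk1* and *Homer1* were the exceptions. In none did both lie below, as 26.8% of all genes tested did. After adjustment over all genes tested, 0 of the 10 had an adjusted p under 0.05 in the quasi-likelihood test, where 0.00616% of all genes tested passed, and 5 had an unadjusted P under 0.05, where 16.9% did. DESeq2 gave 2 of the 10, *Scg2* and *Vgf*, an adjusted p under 0.05 in a test where 1.53% of genes passed as higher. The likelihood ratio test gave 4, *Scg2*, *Vgf*, *Nptx2* and *Inhba*, where 1.98% passed as higher. By the rule for UP, DESeq2 called 7 of the 10 (6.16% of genes) and the likelihood ratio test 7 (8.72%). With a limit of 1.5-fold in place of 1.2-fold the same 5 were UP, as were 4.71% of all genes tested, and with no filter on low counts *Scg2*, *Vgf* and *Nptx2* were UP, as were 7.83%.

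**Figure D2:**
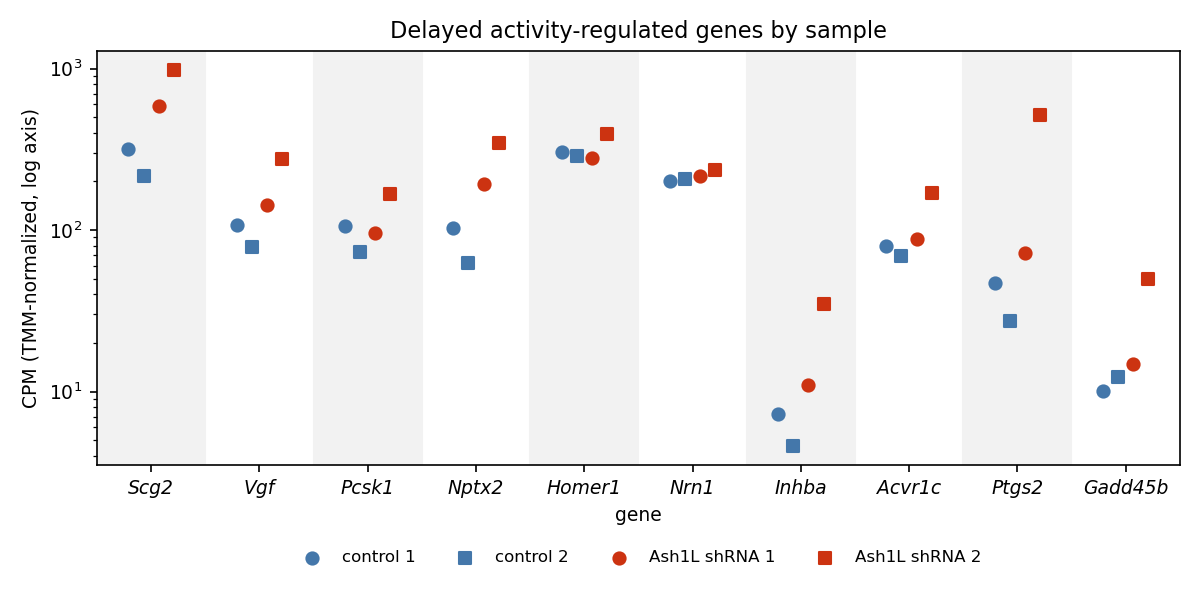
Level of each gene in every sample, as TMM-normalized CPM on a log axis. Blue points are the 2 control and red points the 2 *Ash1L* shRNA samples, with circles for sample 1 and squares for sample 2. *Ash1L* shRNA sample 2 is highest for all 10 genes, and *Ptgs2* has the widest gap, from 71.9 to 515 CPM, between the *Ash1L* shRNA samples.

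The prohormone and granule genes were led by *Scg2* (chromosome 1, 79434669 to 79440120), which encodes secretogranin II, a granin of dense-core vesicles and the precursor of secretoneurin. It had 318 and 215 CPM in control samples 1 and 2 and 589 and 986 CPM in *Ash1L* shRNA samples 1 and 2. The 2 groups stood apart, sample 1 at 2.21 and sample 2 at 3.70 times the control mean. Against the control mean of 267 ± 72.7 CPM (SD, n = 2), the *Ash1L* shRNA mean was 787 ± 280 CPM (SD, n = 2). *Scg2* rose by 1.56 on the log2 scale (SE, the standard error, 0.30, adjusted p = 0.250, edgeR's quasi-likelihood test).

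*Vgf* (chromosome 5, 137026392 to 137033351) encodes the precursor of several secreted neuropeptides and is induced by neurotrophins. Its levels were 107 and 78.9 CPM in the controls and 142 and 275 CPM in the *Ash1L* shRNA samples, without overlap. It rose by 1.17 on the log2 scale (SE 0.34, adjusted p = 0.260, edgeR's quasi-likelihood test). *Pcsk1* (chromosome 13, 75089826 to 75134861) encodes prohormone convertase 1/3, which cleaves proneuropeptides in the granule. It had 105 and 73.3 CPM in the controls and 95.3 and 167 CPM in the *Ash1L* shRNA samples. *Ash1L* shRNA sample 1 thus lay between the controls and only sample 2 lay above them. *Pcsk1* did not pass, at 0.56 ± 0.31 (log2 fold change ± SE, adjusted p = 0.393, edgeR's quasi-likelihood test).

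Among the synaptic genes, *Nptx2* (chromosome 5, 144545902 to 144557478) encodes a secreted pentraxin that clusters AMPA receptors at excitatory synapses on interneurons. It stood at 103 and 62.3 CPM in the controls and at 192 and 348 CPM in the *Ash1L* shRNA samples. Both *Ash1L* shRNA samples were well above the controls, at 2.32 and 4.21 times the control mean. *Nptx2* rose by 1.71 on the log2 scale (SE 0.37, adjusted p = 0.253, edgeR's quasi-likelihood test). *Homer1* (chromosome 13, 93299635 to 93405129) encodes postsynaptic scaffolds and the short, activity-induced Homer1a, which uncouples them. Counts per gene do not separate Homer1a from the long forms. Its levels were 303 and 286 CPM in the controls and 281 and 396 CPM in the *Ash1L* shRNA samples. Sample 1 was the lowest of the 4 and sample 2 the highest, and *Homer1* was not called, at 0.20 ± 0.18 (log2 fold change ± SE, adjusted p = 0.581, edgeR's quasi-likelihood test).

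*Nrn1* (chromosome 13, 36725361 to 36735131) encodes neuritin, a membrane-anchored protein that promotes neurite and spine growth. It had 203 and 206 CPM in the controls and 215 and 237 CPM in the *Ash1L* shRNA samples. The groups did not overlap, the means differed by 1.10-fold, and *Nrn1* was not called, at 0.14 ± 0.11 (log2 fold change ± SE, adjusted p = 0.534, edgeR's quasi-likelihood test). *Nrn1* shares 501 exonic bases with *Fars2* on the other strand, and *Acvr1c* shares 168 with the antisense gene *Gm13544*. The libraries were stranded but the strand setting of the counting is not given in the sources used here, so reads of these partners cannot be told apart.

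The activin genes were both UP. *Inhba* (chromosome 13, 16011851 to 16031621) encodes the beta A subunit of activin A, a secreted ligand of the TGF-beta family. It was the least abundant of the 10, with 7.23 and 4.62 CPM in the controls and 11.0 and 35.0 CPM in the *Ash1L* shRNA samples. All *Ash1L* shRNA values exceeded the controls, and sample 2 had 3.18 times the level of sample 1. *Inhba* rose by 1.98 on the log2 scale (SE 0.60, adjusted p = 0.260, edgeR's quasi-likelihood test). Its lowest count, 102 in control sample 1, has an exact Poisson 95% interval of 83.2 to 124 counts, the widest of these genes relative to its value, and such intervals cover counting error only. *Acvr1c* (chromosome 2, 58267453 to 58357895) encodes the type I receptor ALK7. It had 79.6 and 69.4 CPM in the controls and 87.6 and 170 CPM in the *Ash1L* shRNA samples, so that sample 1 lay just above the controls. It rose by 0.79 on the log2 scale (SE 0.31, adjusted p = 0.291, edgeR's quasi-likelihood test). Without *Ash1L* shRNA sample 2 the log2 fold change of *Acvr1c* was 0.24 and was no longer called.

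*Ptgs2* (chromosome 1, 150100031 to 150108227) encodes cyclooxygenase-2, the inducible enzyme of prostaglandin synthesis, which excitatory neurons express with activity. It had 46.9 and 27.4 CPM in the controls, 71.9 CPM in *Ash1L* shRNA sample 1 and 515 CPM in sample 2. Sample 1 was at 1.94 times and sample 2 at 13.9 times the control mean. *Ptgs2* had the highest fitted difference of the 10, at 2.99 ± 1.14 (log2 fold change ± SE), and was not called (adjusted p = 0.321, edgeR's quasi-likelihood test). Without *Ash1L* shRNA sample 2 it was UP, at 0.97 ± 0.34. *Gadd45b* (chromosome 10, 80930073 to 80932204) encodes a stress- and activity-induced protein linked to active DNA demethylation. Its levels were 10.1 and 12.3 CPM in the controls and 14.9 and 49.8 CPM in the *Ash1L* shRNA samples, in which sample 2 again stood far above sample 1. *Gadd45b* was not called, at 1.51 ± 0.59 (log2 fold change ± SE, adjusted p = 0.300, edgeR's quasi-likelihood test). Both genes had separated groups, and the gap between the *Ash1L* shRNA samples exceeded that between the groups' nearest samples.

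**Figure D3:**
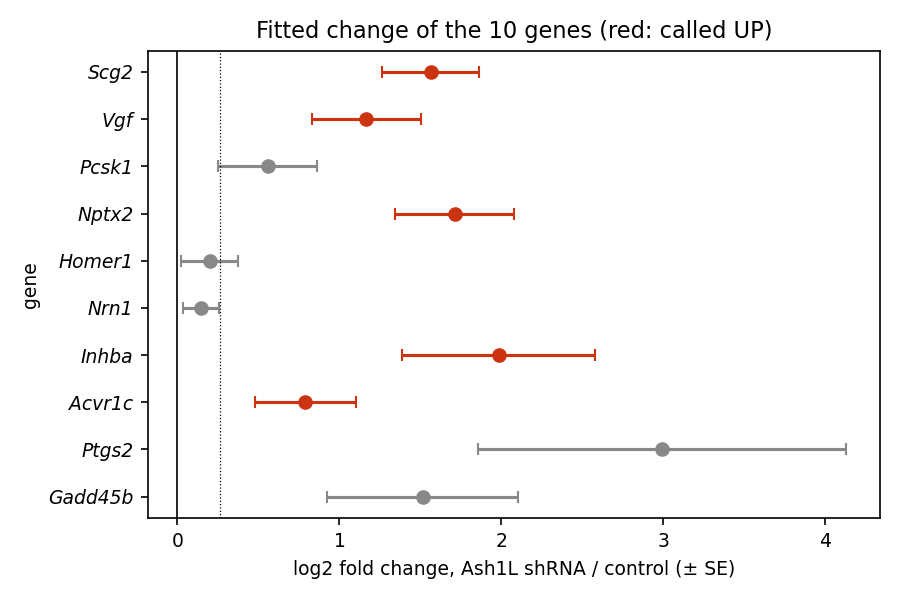
Fitted log2 fold change of each gene, *Ash1L* shRNA over control, with bars of 1 standard error. Red marks the 5 genes called UP and the dotted line the 1.2-fold limit. The values run from 0.14 for *Nrn1* to 2.99 for *Ptgs2*, whose bar is the longest.

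Per kilobase of exonic length (GENCODE vM21, all exons of a gene merged), *Scg2* and *Nrn1* were the most abundant in the controls, at means of 106 and 90.9 CPM per kilobase, and their control samples overlapped. *Nptx2*, *Vgf* and *Homer1* followed at 32.6, 31.3 and 24.6 CPM per kilobase, where the control samples of *Nptx2* and *Vgf* overlapped and those of *Vgf* and *Homer1* did not. *Pcsk1* stood apart below them at 15.9. *Ptgs2*, *Acvr1c* and *Gadd45b* lay at 8.11, 8.01 and 7.06 CPM per kilobase and overlapped, and *Inhba* was lowest at 0.927. In *Ash1L* shRNA sample 2 the order was different, with 392 CPM per kilobase for *Scg2*, 137 for *Nptx2*, 113 for *Ptgs2*, 105 for *Nrn1* and 92.4 for *Vgf*. *Ptgs2* had thus passed from the lower group of genes to the level of *Nrn1* in that sample.

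The size of the difference was not the same in the *Ash1L* shRNA samples. The level was highest in sample 2 for all 10 genes, a place held by 34.2% of all genes tested. Sample 2 exceeded sample 1 by 1.10-fold for *Nrn1*, 1.41-fold for *Homer1*, between 1.67-fold and 1.94-fold for *Scg2*, *Pcsk1*, *Nptx2*, *Vgf* and *Acvr1c*, 3.18-fold for *Inhba*, 3.35-fold for *Gadd45b* and 7.17-fold for *Ptgs2*. The controls differed as well. The level was lowest in control sample 2 for 7 of the 10 genes, against 27.4% of all genes tested, and these 7 were the ones both highest in *Ash1L* shRNA sample 2 and lowest in control sample 2, as 16.9% of all genes tested were. For them control sample 1 exceeded control sample 2 by up to 1.71-fold, for *Ptgs2*. *Ash1L* shRNA sample 1 alone lay above both controls for 8 of the 10 genes, against 36.6% of all genes tested. Its median log2 difference from the control mean was 0.51 over the 10 genes, and that of sample 2 was 1.72.

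The count of genes called UP depended on which sample was left out. Without *Ash1L* shRNA sample 2 it was 5 of 10 (*Scg2*, *Vgf*, *Nptx2*, *Inhba* and *Ptgs2*), where 6.25% of all genes tested were UP. It was 9 of 10, all but *Nrn1*, without *Ash1L* shRNA sample 1, where 14.4% were UP. Without control sample 2 it was 2 of 10, *Scg2* and *Nptx2*, where 2.57% were UP, and without control sample 1 it was 4 of 10 (*Scg2*, *Vgf*, *Nptx2* and *Inhba*), where 5.07% were UP. None of the 10 was DOWN in these 4 fits, in which between 1.86% and 16.5% of all genes tested were DOWN (4.14% without control sample 1). With the replicate number as a term, 5 were UP where 6.48% of all genes tested were, with *Gadd45b* called and *Acvr1c* not called. *Scg2* and *Nptx2* were thus UP with any 1 sample left out, with log2 fold changes from 1.15 to 1.88 and from 1.23 to 2.13. In these fits the single remaining sample of a group is assumed to vary like the other group.

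The immediate early genes gave a different picture in *Ash1L* shRNA sample 1. Of 16 such genes, 11 lay below both controls in that sample and 1, *Jun*, lay above both, whereas 37.5% of all genes tested lay below. In sample 2 all 16 lay above both controls, as 41.7% of all genes tested did. *Fos*, which encodes a subunit of the AP-1 factor, had 39.3 and 27.5 CPM in the controls, 27.9 CPM in sample 1 and 630 CPM in sample 2. *Npas4*, which encodes a factor specific to neuronal activity, had 26.1, 13.3, 18.4 and 529 CPM in the same order. *Arc*, which encodes a postsynaptic protein that promotes AMPA receptor endocytosis, had 257, 182, 126 and 953 CPM.

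Except for *Jun*, the early genes were thus above both controls in 1 *Ash1L* shRNA sample, whereas *Scg2*, *Vgf*, *Nptx2*, *Inhba*, *Acvr1c*, *Ptgs2*, *Gadd45b* and *Nrn1* were above them in both. Whether the lists differ was not tested. None of the 16 was UP or DOWN in edgeR's quasi-likelihood test, where 8.61% and 8.28% of all genes tested were. In it 0 of the 16 had an unadjusted P under 0.05, against 16.9% of all genes tested. DESeq2 called 3 UP (6.16% of genes) and the likelihood ratio test 4 (8.72%). The median log2 fold change of the 16 was 1.29 with 15 higher, and the exception was *Egr3*. Without *Ash1L* shRNA sample 2 the median was -0.47, and 9 of the 16 were DOWN and 0 UP in edgeR's test, where 5.05% of all genes tested were DOWN. In that same fit the median log2 fold change was 0.51 over the 10 delayed genes and -0.0068 over all genes tested. Without *Ash1L* shRNA sample 1 the median was 2.08 over the 16 early genes and -0.0056 over all genes tested. All 16 then had a fitted level above control.

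**Figure D4:**
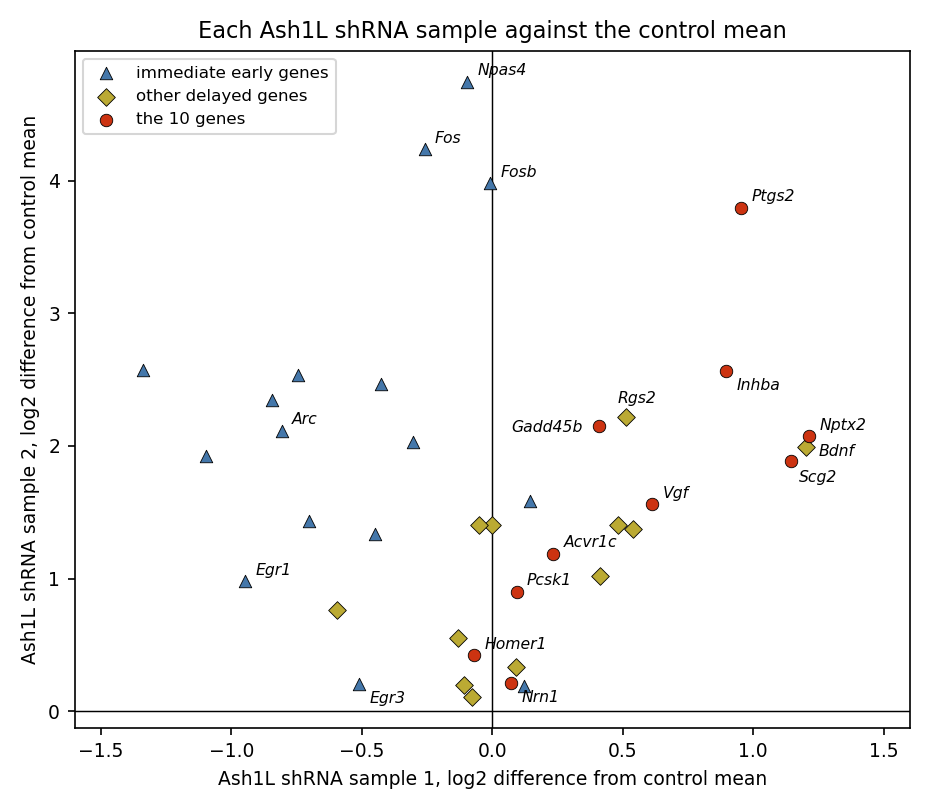
Log2 difference of each *Ash1L* shRNA sample from the control mean, sample 1 on the x axis and sample 2 on the y axis. Red circles are the 10 genes, yellow diamonds 12 other delayed activity-regulated genes and blue triangles 16 immediate early genes. All points lie above 0 on the y axis, while most immediate early genes lie left of 0 and 9 of the 10 genes right of 0 on the x axis.

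Of 12 other delayed activity-regulated genes, 4 were UP and 0 DOWN in edgeR's quasi-likelihood test, and 4 had an unadjusted P under 0.05. The shares over all genes tested were 8.61%, 8.28% and 16.9%. The list median was 0.81 on the log2 scale. DESeq2 and the likelihood ratio test also gave 0 DOWN. In *Ash1L* shRNA sample 1, 6 lay above both controls and 3 below, where 36.6% and 37.5% of all genes tested did. *Bdnf*, which encodes the neurotrophin that signals through TrkB, had 66.0 and 43.0 CPM in the controls and 125 and 217 CPM in the *Ash1L* shRNA samples. It rose by 1.65 on the log2 scale (SE 0.32). *Sorcs3*, a sorting receptor gene, rose by 1.02, *Plat*, the gene of tissue plasminogen activator, by 1.02, and *Crem*, a cAMP-responsive factor gene, by 0.75. The most abundant of the list were not called, namely *Ptprn*, *Syt4* and *Plk2*, with log2 fold changes of 0.22, 0.02 and 0.25.

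The partners of the 10 genes in their pathways were mostly not called, as were 13491 of all 16232 genes tested (8.61% UP and 8.28% DOWN). Of 8 other granin and prohormone processing genes, 1 was UP and 1 DOWN. *Pam*, which encodes the enzyme that amidates neuropeptides, had 509 and 346 CPM in the controls and 673 and 705 CPM in the *Ash1L* shRNA samples, and rose by 0.69 on the log2 scale (SE 0.19). *Pcsk2*, the other neuronal prohormone convertase gene, had 532 and 690 CPM in the controls and 494 and 319 CPM in the *Ash1L* shRNA samples and fell by 0.59 (SE 0.24). The ratio of *Pcsk1* to *Pcsk2* counts was 0.198 and 0.106 in the controls and 0.193 and 0.523 in the *Ash1L* shRNA samples, so that sample 2 alone was outside the control range. *Chgb* and *Cpe*, for chromogranin B and carboxypeptidase E, had log2 fold changes of 0.35 and -0.08 and were not called.

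*Nptx1*, the paralog of *Nptx2*, had 356 and 303 CPM in the controls and 339 and 334 CPM in the *Ash1L* shRNA samples, and was not called (log2 fold change 0.03). The ratio of *Nptx2* to *Nptx1* counts was 0.290 and 0.205 in the controls and 0.566 and 1.04 in the *Ash1L* shRNA samples. *Homer2*, a constitutive relative of *Homer1*, had 112 and 111 CPM in the controls and 85.1 and 62.9 CPM in the *Ash1L* shRNA samples, and fell by 0.59 on the log2 scale (SE 0.16). *Homer3* rose by 0.86 and *Nrn1l* by 1.16, both from levels of 5.24 CPM or less in the controls.

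Of 12 other activin genes, none was UP in edgeR's quasi-likelihood test and 1, *Smad3*, was DOWN, and 1 had an unadjusted P under 0.05. The shares over all genes tested were 8.61%, 8.28% and 16.9%. DESeq2 and the likelihood ratio test called none of them. *Smad3*, which carries the activin signal to the nucleus, fell by 0.32 (SE 0.13). The receptor genes *Acvr1b* and *Acvr2a* had log2 fold changes of -0.22 and -0.09. In *Ash1L* shRNA sample 1, 11 of the 12 lay below both controls, as did 37.5% of all genes tested. The median log2 fold change of the list was -0.25. *Inhba* and *Acvr1c* were UP in a pathway in which 10 of the 12 other genes had a fitted level below control. Of all 16232 genes tested, 8164 had a fitted level below control.

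Of 10 other prostanoid genes, 2 were UP and 1 DOWN, where 8.61% and 8.28% of all genes tested were. *Ptgs1*, the constitutive cyclooxygenase gene, had 36.3 and 29.0 CPM in the controls and 58.1 and 98.8 CPM in the *Ash1L* shRNA samples and rose by 1.27 on the log2 scale (SE 0.27). *Ptges3* rose by 0.35, and *Ptgds*, which encodes prostaglandin D synthase, fell by 0.84 (SE 0.15). Among the relatives of *Gadd45b* and the DNA demethylation genes, *Gadd45a* had 7.44 and 4.99 CPM in the controls and 13.5 and 24.4 CPM in the *Ash1L* shRNA samples and rose by 1.63 (SE 0.35). *Gadd45g*, named after its values were seen, had 7.51 and 8.41 CPM in the controls and 14.6 and 103 CPM in the *Ash1L* shRNA samples, and like *Gadd45b* it was not called in edgeR's quasi-likelihood test. *Tet1*, *Tet2* and *Tet3*, which encode the 5-methylcytosine oxidases, had log2 fold changes of 0.18, 0.12 and 0.68 and were not called in that test. DESeq2 called 3 genes of this list UP (6.16% of genes) and the likelihood ratio test 2 (8.72%), against 1 in the quasi-likelihood test (8.61%). The pathway lists, the immediate early genes and the other delayed genes together held 68 tested genes. Of the 68, 10 were UP and 4 DOWN, where 8.61% and 8.28% of all genes tested were. Other delayed genes made up 4 of the 10 UP. The median over the 68 was 0.22 on the log2 scale. It was 1.29 for the early and 0.81 for the other delayed genes, and from -0.25 to 0.68 for the pathway lists.

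The genes whose centred log2 CPM over the 4 samples lay nearest to the mean profile of the 10 genes were *P2ry2*, *Tuft1*, *Nfil3*, *A330032B11Rik* and *Barx2*. Their root-mean-square distances ran from 0.03 to 0.05 log2 units. The mean profile was -0.39 and -0.75 in the controls and 0.01 and 1.13 in the *Ash1L* shRNA samples. Of the 10 genes, *Vgf* was nearest to that mean, at 0.07, and *Ptgs2* farthest, at 0.90, followed by *Nrn1* at 0.62 and *Homer1* at 0.54. The likeness rests on 4 samples that share their groups and libraries.

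Markers of the cells that could carry these RNAs moved as well. All 6 excitatory neuron markers had lower levels in each *Ash1L* shRNA sample than in each control, as did 26.8% of all genes tested. Of the 6, 3 (*Camk2a*, *Neurod6* and *Tbr1*) were DOWN. The share of all genes tested that were DOWN was 8.28%, which applies to each DOWN count below. The summed level of the 6 was 2753 to 3234 CPM in the controls and 2045 to 2538 CPM in the *Ash1L* shRNA samples. Of 7 interneuron markers 3 were DOWN, with sums of 629 to 688 and 570 to 594 CPM, and of 6 pan-neuronal markers 1 was DOWN, with sums of 7285 to 7569 and 5501 to 6520 CPM. *Gad2*, *Slc32a1* and *Map2* went against the rest of these neuronal markers, with levels above both controls in *Ash1L* shRNA sample 2, where the 10 genes were highest. Of 6 astrocyte markers 3 (*Aldh1l1*, *Slc1a3* and *Gja1*) were DOWN, with sums of 1578 to 1599 and 1070 to 1227 CPM. The other astrocyte markers were not called. *Aqp4* was highest in *Ash1L* shRNA sample 2, at 254 CPM against 231 and 200 CPM in the controls. *Gfap* and *S100b* had log2 fold changes of 0.0007 and -0.27. For the oligodendrocyte, microglia and endothelial markers, 6, 6 and 5 in number, none was called in edgeR's quasi-likelihood test, DESeq2 or the likelihood ratio test, with 0 at an unadjusted P under 0.05 in the first. Their sums were 2503 to 2818 and 2371 to 2696 CPM for oligodendrocytes and 211 to 237 and 199 to 241 CPM for endothelial cells.

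The microglia sum was 539 to 568 CPM in the controls, 666 CPM in *Ash1L* shRNA sample 1 and 281 CPM in sample 2. Myeloid cells and fibroblasts can also express *Ptgs2*, *Inhba* and *Gadd45b*. Like all 10 genes, these were highest in *Ash1L* shRNA sample 2, which had the lowest microglia sum. The fibroblast markers *Col1a1* and *Col1a2* were also highest in that sample, at 19.3 and 52.8 CPM, while *Dcn*, *Lum* and *Pdgfrb* were not. Which cells carried the RNAs of the 10 genes was not tested. Of 5 fibroblast markers 1, *Lum*, was UP, where 8.61% of all genes tested were. The fibroblast sums were 88.9 to 135 CPM in the controls and 129 to 132 CPM in the *Ash1L* shRNA samples. Of 5 infiltrating myeloid markers 3 were tested and all 3 were DOWN, with sums of 22.8 to 43.3 and 7.24 to 8.58 CPM, and *S100a8* was below 0.5 CPM in every sample. Of 6 striatal projection neuron markers, which would mark a dissection that reached the striatum, *Drd2* and *Rgs9* were UP. The share of all genes tested was 8.61%. *Drd1*, *Adora2a* and *Ppp1r1b* were not called, with log2 fold changes of 0.07, 0.57 and 0.63. The values of *Drd2* rest on 13 to 68 counts a sample. *Drd2* had 0.921 and 0.969 CPM in the controls and 1.42 and 3.28 CPM in the *Ash1L* shRNA samples, and *Rgs9* had 18.0 and 22.2 CPM in the controls and 27.2 and 51.5 CPM in the *Ash1L* shRNA samples. The part of these shifts in the levels of the 10 genes was not tested.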

How the data were processed

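Strand-specific libraries of ribosomal RNA-depleted total RNA were sequenced as paired ends. The authors mapped reads to the mm10 genome by RNA STAR, summarised them over genes by featureCounts and deposited unnormalized counts, 1 table a sample. The labels' extraction protocol instead names Cutadapt and TopHat2. The strand and multiple-mapping settings are not given in the sources used here. The sources used here do not say that the pools were prepared separately, so p-values measure the spread between these samples.

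Counts were filtered with filterByExpr (16232 genes kept), scaled by TMM and tested with edgeR 4.0.16 (R 4.3.3) by robust quasi-likelihood F tests, with Benjamini-Hochberg adjustment over all genes tested. Standard errors are the log2 fold change over the square root of F. Alternatives were DESeq2 1.42.0, the likelihood ratio test, other scalings, filters and a fold limit, a replicate block and leaving out each sample.

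The members and lists were chosen with earlier results of these data known, so no list is independent evidence. From each pathway list the 3 most abundant genes and any called gene (at most 6) were named, with the 5 genes nearest in profile (0.01 CPM added before logs). *Drd1* was matched by its older symbol. Of the striatal markers, 1 result and the list's sum are not reported here. Replicates differed beyond counting error (chi-square per degree of freedom 14.8 and 42.6).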

Additional observations from a re-analysis of the deposited data

How the results depend on the processing

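Against 5 of the 10 genes UP, 3 were UP with no filter on low counts, and 2 to 9 when each sample was left out in turn. No setting called any of the 10 DOWN. Of 140 values of single genes under 14 alternatives, 117 kept their direction and call, 9 lost and 13 gained the call, and 1 changed direction, *Homer1*, which ran from -0.067 (without *Ash1L* shRNA sample 2) to 0.42 with a sample left out. *Acvr1c* lost its call under 6 alternatives. Over the pathway lists, 10 genes were UP, and 16 with DESeq2 and 16 with the likelihood ratio test, and 3 to 33 with a sample left out. Over the same lists 4 were DOWN, and 2 with upper-quartile scaling and 2 with at least 10 counts in every sample. Both counts also changed when single samples were left out. *Ash1l* had log2 fold changes from -0.97 to -0.31 with a sample left out and lost its call in 3 of those 4 fits. Library-size scaling moved the median log2 fold change of all genes to 0.039.

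Same-numbered samples share only a number, and their deviations from the group means correlated at -0.11 across genes. In a fit with replicate block, 5 of the 10 genes were UP, *Gadd45b* among them and *Acvr1c* not, and 0 DOWN. Of the 10, 8 had separated groups, and *Ash1l* was at -0.63. Over the pathway, early and other delayed lists, 9 genes were UP and 2 DOWN. With crossed pairs, chosen after that correlation was seen, 6 of the 10 were UP, as were 9.49% of all genes tested. Over the same lists 12 genes were then UP and 5 DOWN. In *Ash1L* shRNA sample 1, 2 immediate early genes in place of 1 lay above both controls with library-size or upper-quartile scaling and with at least 10 counts in every sample. With 2 samples a group, one of them at 14251190 counts, *Nrn1* was called in none of these fits and *Homer1* in 1.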
